A study of Mus musculus with 6 samples.

Results

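The nuclear-encoded subunits of oxidative phosphorylation differed little between tick-bitten ear skin of mice with and without adiponectin. They were taken from the table of normalized counts as every gene whose symbol begins with Nduf, Uqcr, Atp5, Sdh followed by a, b, c or d alone, or Cox followed by a digit from 4 to 8. The rule found 94 of the 15667 genes, and 92 of them were among the 14306 genes tested. By symbol, 84 were grouped as subunits, 8 as assembly factors of complex I and 2 as rows with -ps. All 94 are called subunit genes below for short. None of the 92 passed an adjusted p of 0.05 (limma, Benjamini-Hochberg over all genes tested), 0 were lower and 1, Cox6c, was higher in KO at an unadjusted p below 0.05. The median log2 fold change of the 92 was -0.07, beside -0.03 for all genes tested.

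RNA-seq was performed on bitten ear skin of WT (Adipo+/+, n = 3) and KO (Adipo-/-, n = 3) mice. All were young adult females from heterozygous B6;129-Adipoqtm1Chan/J parents, a line of mixed background whose null allele affects every cell of the KO mice, and ticks were feeding on all of them. Each library came from 1 punch of 1 mouse, so the replicates are separate animals. Unbitten skin was not analysed here.

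Oxidative phosphorylation is carried out by protein complexes of the inner mitochondrial membrane. Complex I oxidizes NADH and complex II oxidizes succinate, both pass electrons through ubiquinone to complex III, and complex IV transfers them from cytochrome c to oxygen. The proton gradient built on the way drives ATP synthesis by complex V. Most subunits are encoded in the nucleus and a few in mitochondrial DNA. The latter carry other symbols, none of which was in the table, and were not analysed here. Muscle fibres are among the cells richest in mitochondria, while the cornified outer layer of the epidermis has lost them.

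Expression is given as counts per 1000000 reads (CPM), and a log2 fold change is the KO minus WT difference of means of log2(CPM + 0.5). Depth, read from the size of a single count, was 4131361 to 6065618 reads in WT and 3403706 to 6591523 in KO libraries. Adipoq, the targeted gene, had 126, 313 and 301 reads in WT and 0, 2 and 0 in KO libraries. Summed markers of other cell types varied widely between libraries. Skeletal muscle markers (20 of 20 in the table, none at 0) held 14539, 15811 and 19102 CPM in WT replicates 1, 2 and 3 and 8835, 11145 and 18341 CPM in KO replicates 1, 2 and 3. Hair follicle markers (20 of 20) held 12.6, 18.7 and 24547 CPM in WT, against 1935, 9736 and 1004 CPM in KO libraries. Adipocyte markers (14 of 14) held 811 to 1289 CPM in WT and 485 to 1135 CPM in KO libraries, and keratinocyte markers (14 of 15) held 44617 to 55663 and 53082 to 71395 CPM. No gene of these lists was at 0 in all libraries, and the part of fat and epidermis in the values below was not tested. With the hair follicle score in the model, 3 subunit genes (Cox8a, Ndufa3 and Sdhb) were lower and 0 higher in KO. At this unadjusted p below 0.05 (limma), the same fit had 578 lower and 304 higher of all 14306 genes tested. None of the subunit genes passed an adjusted p of 0.05. In bulk skin, fewer cells of a type and less RNA per cell cannot be told apart.

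Summed over the 94 genes, the subunits held 5050.35, 5049.96 and 4982 CPM in the WT libraries and 5204, 4631 and 4769 CPM in the KO libraries. That was 0.463% to 0.520% of all reads. The WT libraries lay close together, and the KO libraries spread on both sides of them. KO replicate 1 held more than any WT library, and KO replicates 2 and 3 held less. A high KO replicate 1 was not particular to these genes. Mitochondrial ribosomal proteins held 1242 to 1367 CPM in WT, against 1387, 1279 and 1179 CPM in KO libraries. Genes with Rpl or Rps symbols held 16946 to 17852 CPM in WT, against 18604, 17132 and 16999 CPM in KO. Genes of the citric acid cycle differed, with 1456 to 1551 CPM in WT, against 1451, 1423 and 1473 CPM in KO.

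Single genes followed the same split of the KO libraries. KO replicate 2 had the lowest of the 6 values in 35 of the 92 genes (38.0%), beside 12.7% of all genes tested. KO replicate 1 had the highest value in 30 (32.6%), beside 13.3% of all genes tested. As the plot of extreme libraries shows, the KO replicates thus deviated in opposite directions, which widened the spread within that group.

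**Figure D1:**
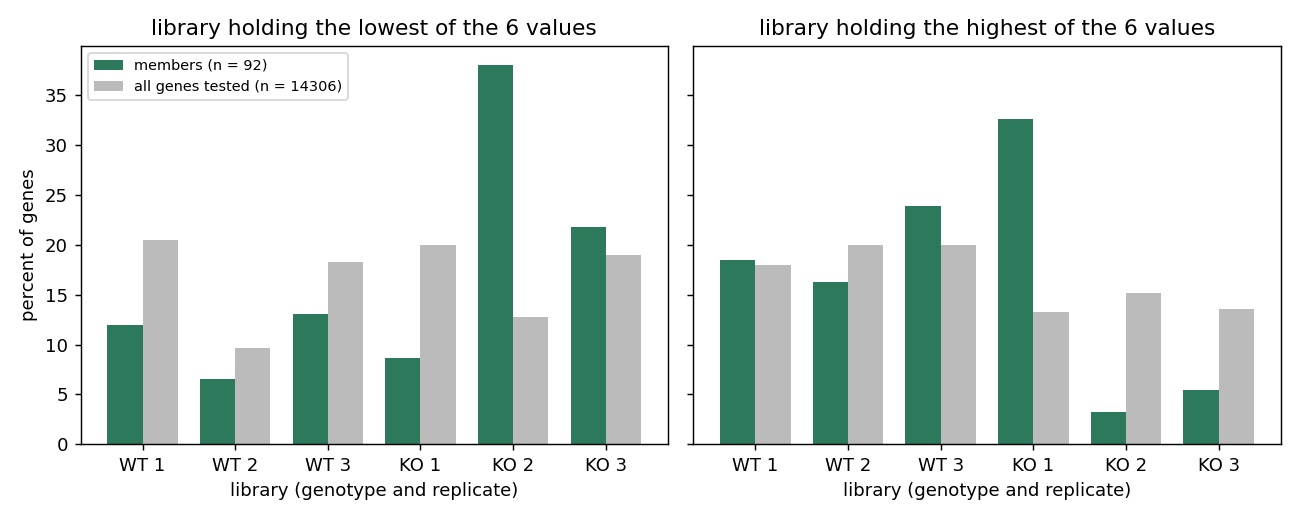
Percent of genes whose lowest (left) or highest (right) of 6 CPM values fell in each library, for the 92 tested subunit genes (green) and all 14306 genes tested (grey). KO replicate 2 held the lowest value of 38.0% and KO replicate 1 the highest value of 32.6% of the subunit genes.

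Fold changes were small in most genes. They ranged from -0.79 for Cox7c-ps1 to 0.81 for Ndufa4l2, and 75 of 92 (81.5%, beside 72.0% of all genes tested) were within 0.25 of 0. The 95% confidence interval lay within 0.5 of 0 in 52 genes (56.5%, beside 32.4%) and within 1 of 0 in 82 (89.1%, beside 74.5%). For these 82 genes a doubling or a halving was outside the interval. The fold change was negative in 61 genes (66.3%, beside 56.7% of all genes tested) and positive in 31. Many genes of the whole table are expressed at lower levels, and the shares were therefore also taken between 20.4 and 57.7 CPM, the quartiles of mean CPM of the 92 genes. There 87.0% of the 46 subunit genes and 82.0% of all 3758 genes were within 0.25 of 0, and 76.1% and 58.2% were negative. The interval lay within 0.5 of 0 in 58.7% and 45.8%, and within 1 of 0 in 97.8% and 92.4%.

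Counts were also read against the background of all genes tested. At an unadjusted p below 0.05, 1.82% of all genes were lower in KO and 1.06% higher, and 0.014% passed the adjusted threshold. In 6 of the 92 genes (6.52%) all KO values lay below all WT values, beside 4.89% of all genes tested. These were Ndufa1, Ndufab1, Ndufb4c, Ndufaf3, Sdhb and Uqcrb. In 3 genes (3.26%) all KO values lay above all WT values, beside 2.95%, namely Cox6c, Ndufb8 and Ndufb10. The shares of the subunit genes were thus close to the background in both directions.

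**Figure D2:**
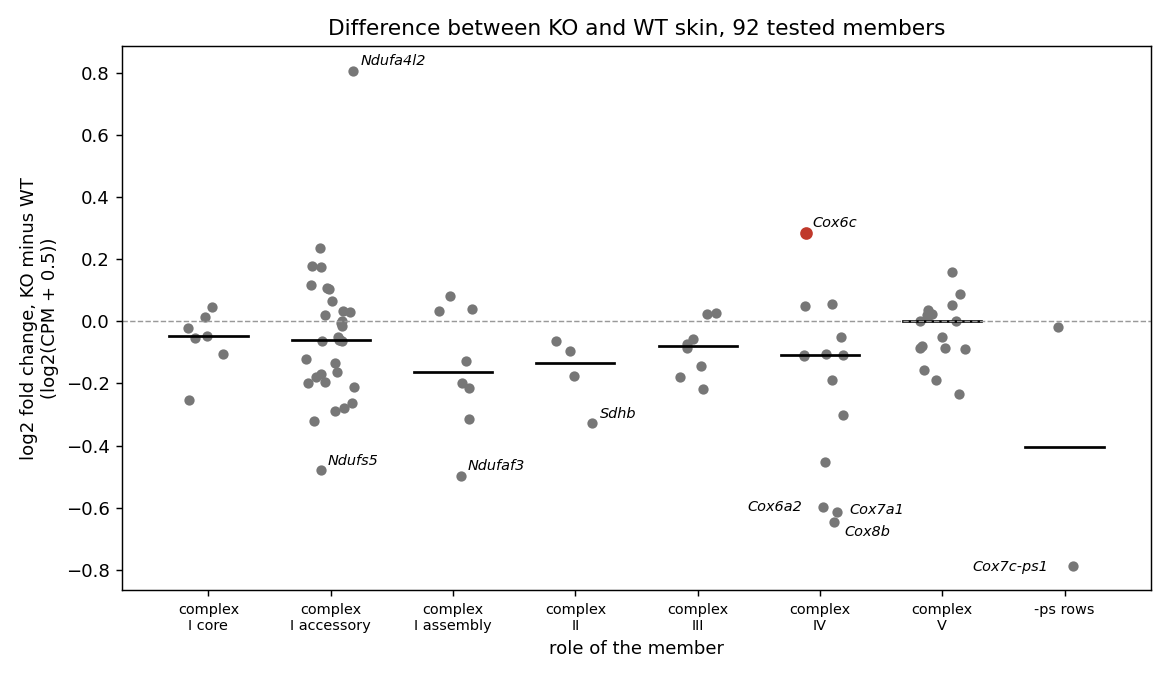
Log2 fold change (KO minus WT, on log2(CPM + 0.5)) of each of the 92 tested subunit genes, grouped by role, with the median of each role as a bar. The only gene at an unadjusted p below 0.05 is Cox6c (red), at 0.29, and most genes lie within 0.25 of the dashed line at 0.

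Complex I was examined first. The 7 core subunits, which carry the electron transfer from NADH to ubiquinone, had a median log2 fold change of -0.05. Ndufs1, the largest iron-sulfur subunit, had 69.9, 79.1 and 79.8 CPM in WT, against 80.1, 75.9 and 69.6 CPM in KO libraries, a fold change of -0.02 ± 0.11 (SE). Ndufv1, which binds the flavin that accepts electrons from NADH, had 77.2, 64.7 and 64.1 CPM in WT, against 77.7, 62.2 and 68.5 CPM in KO libraries. The groups overlapped in both genes and in the other core subunits. The fold change furthest from 0 was that of Ndufs8, an iron-sulfur subunit, at -0.25. It had 32.9, 31.5 and 32.0 CPM in WT, and 33.4 in KO replicate 1 but 23.5 and 24.7 CPM in the other KO libraries.

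The 32 accessory genes of complex I had a median of -0.06, with 20 negative and 12 positive fold changes. Ndufab1 encodes the mitochondrial acyl carrier protein, which also serves fatty acid synthesis. It had 26.4, 26.9 and 26.5 CPM in WT, against 23.2, 24.4 and 21.1 CPM in KO libraries, a fold change of -0.21 ± 0.13 (SE). Ndufa1 had 17.7, 24.6 and 16.7 CPM in WT, against 14.7, 16.5 and 15.0 CPM in KO libraries (-0.32 ± 0.19, SE), and the lowest WT and highest KO library nearly met. Ndufb10 lay the other way, at 52.0, 53.5 and 45.7 CPM in WT, against 56.7, 56.3 and 57.3 CPM in KO libraries (0.17 ± 0.11, SE). None of these 3 passed an unadjusted p of 0.05 by limma, although their groups did not overlap. Ndufa11 (0.18 ± 0.15, SE) had overlapping groups.

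Ndufa4 carries a complex I symbol, although its protein is now counted as a subunit of complex IV. It had 89.1, 90.1 and 64.1 CPM in WT, against 96.5, 54.6 and 85.5 CPM in KO libraries, so that both groups covered much the same range. Its paralog Ndufa4l2 (chromosome 10, 127514939 to 127517156, plus strand) is known as a hypoxia-induced gene. It had 4.11, 14.4 and 6.59 CPM in WT, against 6.83, 14.6 and 23.2 CPM in KO libraries. Its fold change of 0.81 ± 0.53 (SE) was the highest of the 92, but its 95% interval ran from -0.42 to 2.03 and WT replicate 2 matched KO replicate 2. The value rested on single libraries. It fell to 0.42 without KO replicate 3, the lowest of the 21 alternatives. It was 1.26 without KO replicate 1 and 1.27 without WT replicate 2, and 1.52 with the skeletal muscle score in the model (limma, unadjusted p of 0.0409, 0.0435 and 0.0287, adjusted p of 0.953 or above). These 3 were the only alternatives below 0.05, and the unadjusted p reached 0.481 in the others (limma). The ratio of Ndufa4l2 to Ndufa4 was higher in KO by 0.87 on the log2 scale, with a two-sided exact permutation p of 0.3.

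The 8 assembly factors of complex I (Ndufaf1 to Ndufaf8) had a median of -0.16, and their values rest on few reads. Ndufaf3 had 7.75, 6.10 and 5.44 CPM in WT, against 3.49, 5.04 and 4.70 CPM in KO libraries, from 32, 30 and 33 reads and 23, 18 and 16 reads. The groups did not overlap, and the fold change was -0.50 ± 0.27 (SE) with an unadjusted p of 0.0989 by limma. No other assembly factor separated the groups. The 95% interval lay within 1 of 0 in 5 of the 8.

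All 4 subunits of complex II, which is also the succinate dehydrogenase of the citric acid cycle, had negative fold changes (median -0.14), as had 56.7% of all genes tested. Sdhb (chromosome 4, 140961271 to 140979198, plus strand), the iron-sulfur subunit, had the fold change furthest from 0. It had 39.2, 44.1 and 50.9 CPM in WT (44.8 ± 5.89, SD, n = 3), against 38.8, 35.6 and 32.0 CPM in KO libraries (35.5 ± 3.41, SD, n = 3). The lowest WT and the highest KO library differed by less than either group's spread. The fold change was -0.33 ± 0.15 (SE; limma, unadjusted p = 0.0552, adjusted p = 0.998). Sdha, the flavoprotein, had 126, 144 and 147 CPM in WT, against 138, 126 and 135 CPM in KO libraries (-0.06 ± 0.10, SE). The membrane anchors Sdhc (-0.10 ± 0.12, SE) and Sdhd (-0.17 ± 0.14, SE) had overlapping groups as well.

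Complex III had 8 genes with a median of -0.08, and all 8 fold changes were within 0.25 of 0. Uqcrc1 and Uqcrc2, the core proteins, had fold changes of 0.03 ± 0.11 and -0.07 ± 0.11 (SE). Uqcrfs1, the Rieske iron-sulfur protein, had 83.5, 82.6 and 77.7 CPM in WT, against 81.8, 67.3 and 72.0 CPM in KO libraries (-0.14 ± 0.11, SE). Uqcrb was lower in every KO library, at 41.9, 42.1 and 44.2 CPM in WT, against 39.9, 39.8 and 40.8 CPM in KO, but by only -0.09 on the log2 scale. Cyc1, the cytochrome c1 of this complex, and Cycs, the mobile cytochrome c, fall outside the symbol rule. Their fold changes were -0.01 and -0.22, with overlapping groups.

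Complex IV held both the gene that was called and, apart from Cox7c-ps1, the genes with the most negative fold changes. Its 14 tested genes had a median of -0.11. Cox6c (chromosome 15, 35931976 to 35938246, minus strand), a small subunit of the complex, had 61.2, 63.9 and 66.6 CPM in WT (63.9 ± 2.68, SD, n = 3), against 85.9, 77.6 and 71.1 CPM in KO libraries (78.2 ± 7.40, SD, n = 3). Every KO library lay above every WT library. The fold change was 0.29 ± 0.11 (SE; limma, unadjusted p = 0.0363, adjusted p = 0.998), with a 95% interval of 0.02 to 0.55. Cox6c was known to be in the gene listing of the study when the list of named genes was written, and a called count of 1 in 92 is near the background of 1.06%. Its unadjusted p was 0.05 or above under 8 of 21 other settings, among them leaving out KO replicate 1 (0.22, limma unadjusted p = 0.124).

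The other widely expressed complex IV subunits did not separate the groups. Cox4i1, an abundant nuclear-encoded subunit, had 190, 176 and 179 CPM in WT, against 186, 198 and 180 CPM in KO libraries (0.05 ± 0.09, SE). Cox5a and Cox5b had fold changes of -0.11 ± 0.15 and -0.19 ± 0.13 (SE), and Cox7a2l, which takes part in joining complexes into supercomplexes, had -0.11 ± 0.14 (SE). Cox8a had 41.9, 53.5 and 55.7 CPM in WT, against 39.0, 42.6 and 40.0 CPM in KO libraries (-0.30 ± 0.14, SE; limma, unadjusted p = 0.068). WT replicate 1 lay within the KO range of that gene, and without it the fold change was -0.43 (limma, unadjusted p = 0.0117, adjusted p = 0.954). Leaving out the WT library nearest to KO must widen the difference. Without WT replicate 3 the fold change was -0.22. Over the 21 alternatives the unadjusted p ran from 0.0117 to 0.24 (limma) and was below 0.05 in 3.

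**Figure D3:**
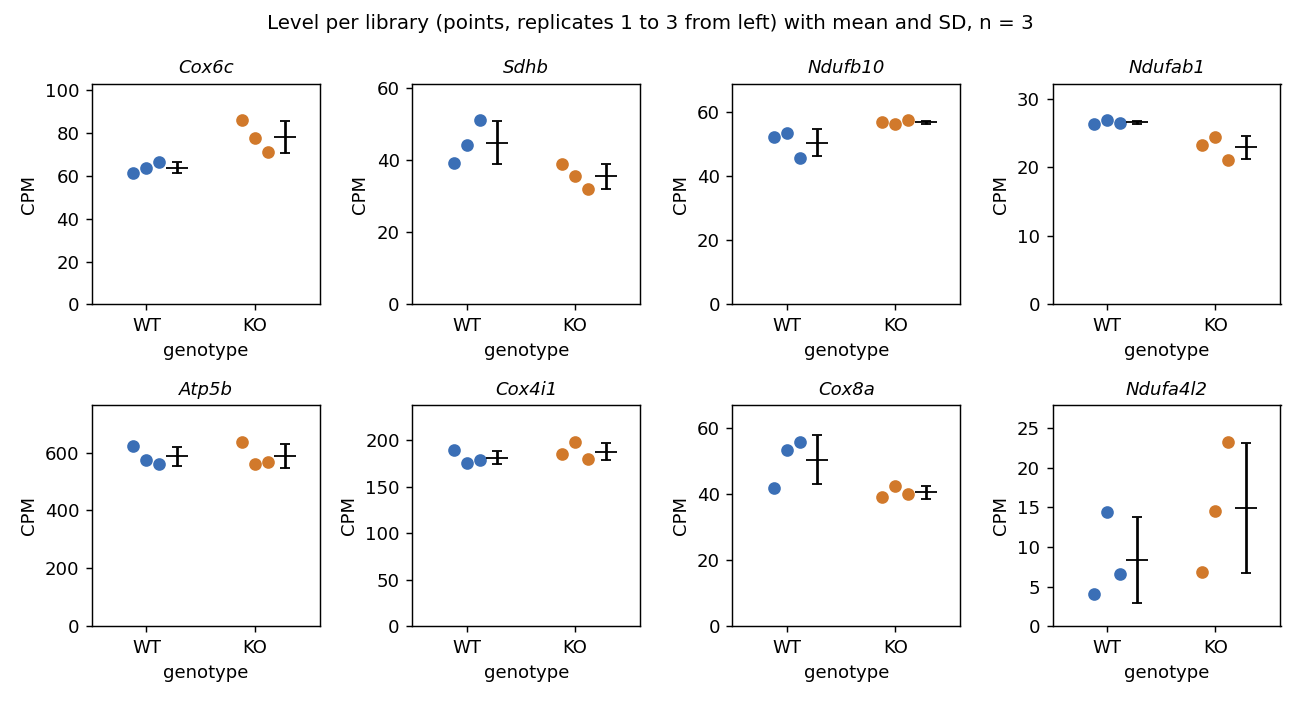
CPM of 8 subunit genes in each library (WT blue, KO orange, replicates 1 to 3 from left), with the mean and SD of each group (n = 3) as a black cross and bar. Cox6c and Ndufb10 lie higher in every KO library, Sdhb and Ndufab1 lie lower in every KO library, and Atp5b, Cox4i1, Cox8a and Ndufa4l2 overlap.

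Some complex IV subunits exist as a heart and skeletal muscle isoform and a widely expressed isoform, and the muscle isoforms had the most negative fold changes of the complex. Cox6a2 (chromosome 7, 128205435 to 128206366, minus strand) had 27.8, 23.6 and 26.1 CPM in WT, against 12.7, 14.3 and 26.2 CPM in KO libraries, a fold change of -0.60 ± 0.27 (SE; limma, unadjusted p = 0.0549). Cox7a1 (chromosome 7, 30184171 to 30186030, plus strand) had 8.23, 11.2 and 10.7 CPM in WT, against 4.70, 5.04 and 10.6 CPM in KO libraries (-0.61 ± 0.33, SE). Cox8b (chromosome 7, 140898942 to 140900446, minus strand) had 9.68, 8.14 and 10.9 CPM in WT, against 6.07, 3.64 and 9.11 CPM in KO libraries (-0.65 ± 0.33, SE). In all 3 genes KO replicates 1 and 2 lay below every WT library and KO replicate 3 lay within the WT range. Without KO replicate 3, the fold changes were -0.91, -0.96 and -0.94, with unadjusted p of 0.00163, 0.00809 and 0.0191 and an adjusted p of 0.9997 in each (limma). Leaving out the KO library nearest to WT must widen the difference. Of the 21 alternatives, only 4, 2 and 2 gave an unadjusted p below 0.05 (limma) for Cox6a2, Cox7a1 and Cox8b.

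The skeletal muscle markers, given above by library, were low in the same KO replicates, and all 20 had negative fold changes (median -0.51). Of the 20, 5 were at an unadjusted p below 0.05 by limma, beside 1.82% of all genes tested that were lower. All 14 adipocyte markers were negative too (median -0.77), with KO replicate 2 (1135 CPM in sum) within the WT range. Of the 14, 4 were at an unadjusted p below 0.05 by limma, beside the same 1.82%. Per 1000 CPM of skeletal muscle markers, the 3 muscle isoforms together had 3.15, 2.71 and 2.49 CPM in WT, against 2.66, 2.06 and 2.50 CPM in KO libraries. The groups overlapped, with KO replicate 2 below every WT library. With the muscle marker score in the model, the fold changes of Cox6a2, Cox7a1 and Cox8b were -0.19, -0.07 and -0.26, none at an unadjusted p below 0.05 by limma. In the same fit the median of the 92 subunit genes was -0.11, with 70 negative, beside -0.03 for all genes tested. Without the score it was -0.07, with 61 negative. The muscle score differed between the genotypes, so that their shares in such a fit cannot be fully told apart. The slow muscle markers (7 of 7) had a median of 0.03, with 3 negative and 4 positive fold changes. Only Myoz2 was lower at an unadjusted p below 0.05 (-0.81; limma, unadjusted p = 0.00503, adjusted p = 0.998). That is 1 of 7, beside 1.82% of all genes tested.

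**Figure D4:**
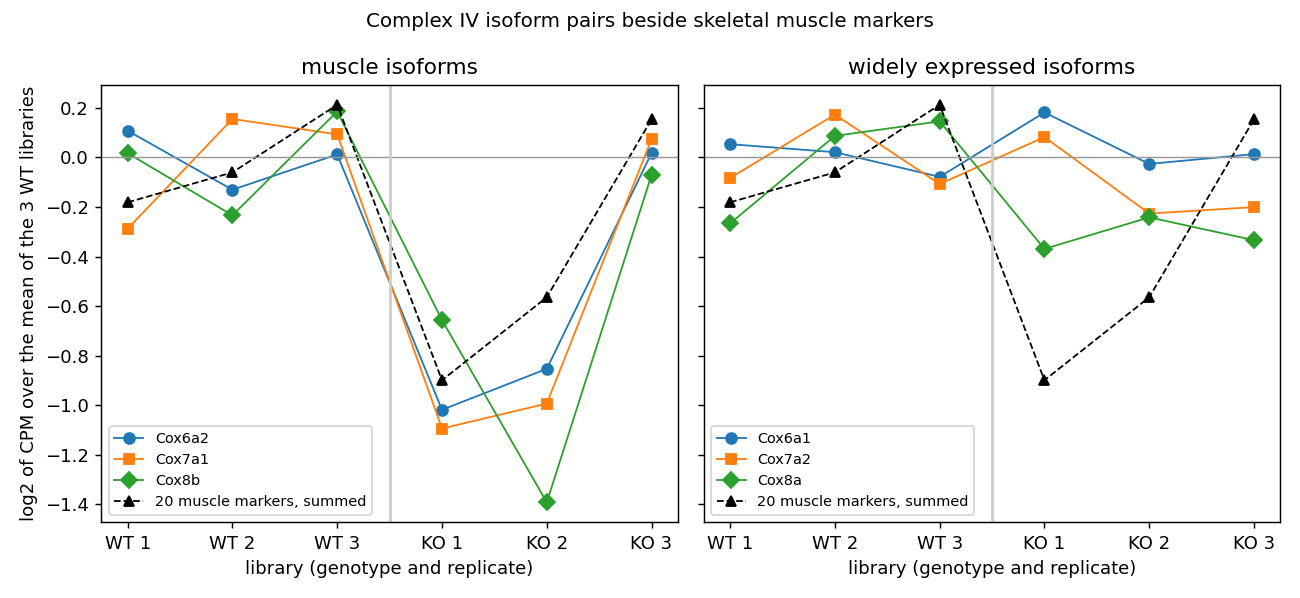
Log2 of CPM over the WT mean for 3 muscle isoforms (left) and their widely expressed counterparts (right) in each library, with the sum of 20 skeletal muscle markers (dashed black) in both panels. Muscle isoforms and markers lie low in KO replicates 1 and 2 and at the WT level in KO replicate 3, while the counterparts stay within 0.4 of 0.

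As a share of each pair per transcript length, Cox6a2 made up 23.6%, 21.2% and 24.1% in WT and 11.5%, 14.4% and 23.0% in KO libraries. The share of Cox7a1 beside Cox7a2 was 30.0%, 32.8% and 36.2% in WT and 17.9%, 22.5% and 37.4% in KO libraries. Cox8b beside Cox8a made up 26.1%, 18.9% and 23.0% in WT and 19.2%, 11.6% and 25.8% in KO libraries. In each pair KO replicate 2 lay below every WT library. KO replicate 1 did so for Cox6a2 and Cox7a1 but lay within the WT range for Cox8b, and KO replicate 3 was within or above the WT range. The log2 ratio of muscle to widely expressed isoform differed between KO and WT by -0.66, -0.51 and -0.34 for these pairs, with two-sided exact permutation p of 0.2, 0.4 and 0.6. Over the 6 pairs compared, the adjusted exact permutation p were 0.6 to 0.8, and 3 against 3 libraries cannot give less than 0.1 before adjustment.

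Isoforms of other tissues were near the limit of detection. Cox4i2, an isoform of lung and of oxygen-sensing cells, had 2, 0 and 8 reads in WT and 4, 8 and 2 reads in KO libraries. Cox6b2, the testis isoform, had 1, 3 and 3 reads in WT and 1, 2 and 1 reads in KO libraries. A count of 0 allows up to 3 reads, or 0.610 CPM in WT replicate 2, and this covers counting error only. Both genes had a mean below 1 CPM and were not tested, and a difference was not detectable at this depth. Their log2 ratios to Cox4i1 and Cox6b1 differed by 0.58 and -0.14 between the groups, with two-sided exact permutation p of 0.4 and 0.8.

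The promoters of 2 isoform pairs and of Cox6a1 are shown to set the muscle isoforms beside widely expressed counterparts. Each line gives the 250 bases before the RefSeq start of the gene (GRCm38.p6), 5′ to 3′ on the strand of the gene, and capitals mark the motifs NRF1 (GCGCATGCG), GABPA (CCGGAAG) and the E-box CAGCTG, a kind of site that muscle regulatory factors bind, on either strand. Cox6a1 lies on the minus strand (chr5:115348959-115349208), Cox7a1 on the plus strand (chr7:30183921-30184170), Cox7a2 on the minus strand (chr9:79759854-79760103), Cox8a on the minus strand (chr19:7217617-7217866) and Cox8b on the minus strand (chr7:140900447-140900696).
Cox6a1: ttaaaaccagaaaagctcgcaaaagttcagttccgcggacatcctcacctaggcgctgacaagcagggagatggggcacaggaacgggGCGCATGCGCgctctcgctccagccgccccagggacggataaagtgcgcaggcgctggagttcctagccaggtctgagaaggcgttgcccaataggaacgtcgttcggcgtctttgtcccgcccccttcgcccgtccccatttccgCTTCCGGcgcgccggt
Cox7a2: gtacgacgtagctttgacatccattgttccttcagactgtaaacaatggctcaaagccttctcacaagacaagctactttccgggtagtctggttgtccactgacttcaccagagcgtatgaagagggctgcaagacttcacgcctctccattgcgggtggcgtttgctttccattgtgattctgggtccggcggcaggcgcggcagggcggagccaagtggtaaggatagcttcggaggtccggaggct
Cox7a1: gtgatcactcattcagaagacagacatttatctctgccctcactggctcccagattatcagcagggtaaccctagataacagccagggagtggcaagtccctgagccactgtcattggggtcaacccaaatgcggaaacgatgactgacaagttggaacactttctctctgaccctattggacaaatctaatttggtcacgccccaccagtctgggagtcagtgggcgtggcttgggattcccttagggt
Cox8a: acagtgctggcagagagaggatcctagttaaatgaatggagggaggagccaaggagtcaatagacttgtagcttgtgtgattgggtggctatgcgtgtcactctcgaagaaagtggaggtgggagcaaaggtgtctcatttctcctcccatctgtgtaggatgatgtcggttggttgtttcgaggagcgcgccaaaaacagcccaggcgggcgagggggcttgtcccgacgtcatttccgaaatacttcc
Cox8b: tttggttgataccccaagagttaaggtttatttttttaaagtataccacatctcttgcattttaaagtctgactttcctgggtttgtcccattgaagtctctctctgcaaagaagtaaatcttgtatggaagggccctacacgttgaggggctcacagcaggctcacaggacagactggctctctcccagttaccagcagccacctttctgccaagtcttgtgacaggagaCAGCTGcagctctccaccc

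The widely expressed isoforms had more CpG dinucleotides in this stretch, with 26 in Cox6a1, 14 in Cox7a2 and 11 in Cox8a, against 4 in Cox7a1 and 1 in Cox8b. Cox6a1 had NRF1 matches on both strands that overlap, the first of them at position -162 from the start, and a GABPA match at position -16. A GABPA match of Cox8a begins at position -5 and runs past the end of the printed stretch. The marked E-box of Cox8b lies at position -19, and a second lies at position 17, past the end of the printed stretch. Cox7a1, also a muscle isoform, had no E-box match. The window of Cox6a2 was not analysed here.

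Over all windows of 300 bases (250 before and 50 after the start), 75 of the 94 genes matched, with 80 windows. An NRF1 match was found in 10 of the 80 (12.5%), beside 1.75% of the 32851 windows of all genes and 3.04% of those of genes in the table. For GABPA the count was 19 (23.8%, beside 8.86% and 15.0%), and for YY1 (AAGATGGCG) it was 8 (10%, beside 1.40% and 2.47%). The E-box CAGCTG was found in 6 (7.5%, beside 16.3% and 16.1%). These were the windows of Cox8b and of Atp5b, Ndufa8, Ndufb10, Ndufs5 and Ndufv2. The 10 genes with an NRF1 match were Atp5g2, Atp5k, Atp5l, Cox6a1, Ndufa8, Ndufa11, Ndufaf4, Ndufaf5, Uqcr11 and Uqcrc1. NRF1, GABPA and YY1 are known regulators of respiratory chain genes, and a match describes the letters of the window, not binding. Median GC content was 58.5% in the windows of these genes and 60% in those of genes in the table.

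Complex V, the ATP synthase, did not separate the genotypes in any gene. The median of its 17 genes was 0.00, all 17 fold changes were within 0.25 of 0, and 14 had a 95% interval within 0.5 of 0. Atp5b, the catalytic beta subunit, had 624, 574 and 562 CPM in WT (587 ± 32.8, SD, n = 3), against 636, 560 and 568 CPM in KO libraries (588 ± 41.7, SD, n = 3). Its 95% interval ran from -0.23 to 0.23. Atp5a1, the alpha subunit, had 504, 468 and 475 CPM in WT, against 507, 472 and 470 CPM in KO libraries. These abundant subunits differed between genotypes by less than the spread between mice.

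The same ring protein of complex V, subunit c, is made from Atp5g1, Atp5g2 and Atp5g3. Their fold changes were 0.04 ± 0.17, 0.09 ± 0.14 and -0.16 ± 0.11 (SE). Per kilobase of transcript, Atp5g3 had the highest level of them at 124 CPM, followed by Atp5g2 at 78.2 and Atp5g1 at 43.6 CPM. Atp5l had the highest fold change of the complex (0.16 ± 0.13, SE), with KO replicate 1 at 75.9 CPM and all other libraries between 55.4 and 60.8 CPM. Atp5j2 had the lowest at -0.24. Atpif1, the inhibitor of complex V, lies outside the rule and had a fold change of 0.04.

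Several genes have a near-identical copy at another locus, and the method that assigned the reads can divide them among copies. Ndufs5 had 1.29, 8.75 and 18.8 CPM in WT, against 12.1, 0.941 and 5.98 CPM in KO libraries, and its fold change had the largest standard error of the 92 (1.01). Ndufs5-ps (chromosome 16, 42955580 to 42956079, plus strand) had 31.4, 27.5 and 16.4 CPM in WT, against 24.0, 25.4 and 22.2 CPM in KO libraries. Their sum varied less, at 32.7, 36.2 and 35.1 CPM in WT, against 36.1, 26.3 and 28.2 CPM in KO libraries, with KO replicates 2 and 3 below every WT library. The separate values of these copies are uncertain.

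Cox7c (chromosome 13, 86044798 to 86046795, minus strand) and Cox7c-ps1 (chromosome 17, 25901856 to 25902227, minus strand) gave another result when summed. Alone, Cox7c had 8.35, 4.80 and 12.1 CPM in WT, against 4.52, 5.88 and 6.68 CPM in KO libraries, and the groups overlapped (-0.45 ± 0.35, SE). Together with the copy it had 11.6, 9.50 and 13.8 CPM in WT, against 6.58, 6.60 and 8.81 CPM in KO libraries, so that every KO library lay below every WT library. The fold change of the sum was -0.63 (limma, unadjusted p = 0.0267, adjusted p = 0.998). Ndufb4c (chromosome 15, 73809458 to 73809933, minus strand) was lower in every KO library, at 31.2, 32.2 and 30.6 CPM in WT, against 27.6, 26.4 and 23.3 CPM in KO (-0.28 ± 0.13, SE; limma, unadjusted p = 0.0698). Ndufb4 itself had 8.54, 9.33 and 7.84 CPM in WT, against 8.95, 6.91 and 12.6 CPM in KO libraries. The summed and copy values were chosen after the data were seen.

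Levels were compared between genes only per kilobase of transcript, for the 89 genes with a transcript length. Atp5b was highest at 307 CPM per kilobase, followed by Cox4i1 at 248, Atp5a1 at 195, Cox6c at 141 and Cox6b1 at 138. Complexes III and V had median levels of 83.9 and 76.3 CPM per kilobase, complex IV 57.6, complex II 37.3, and the accessory and core subunits of complex I 33.9 and 30.2. Assembly factors of complex I had a median of 4.94, and the highest of them reached 7.01 CPM per kilobase. As the plot of levels shows, WT and KO means followed each other through this range.

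**Figure D5:**
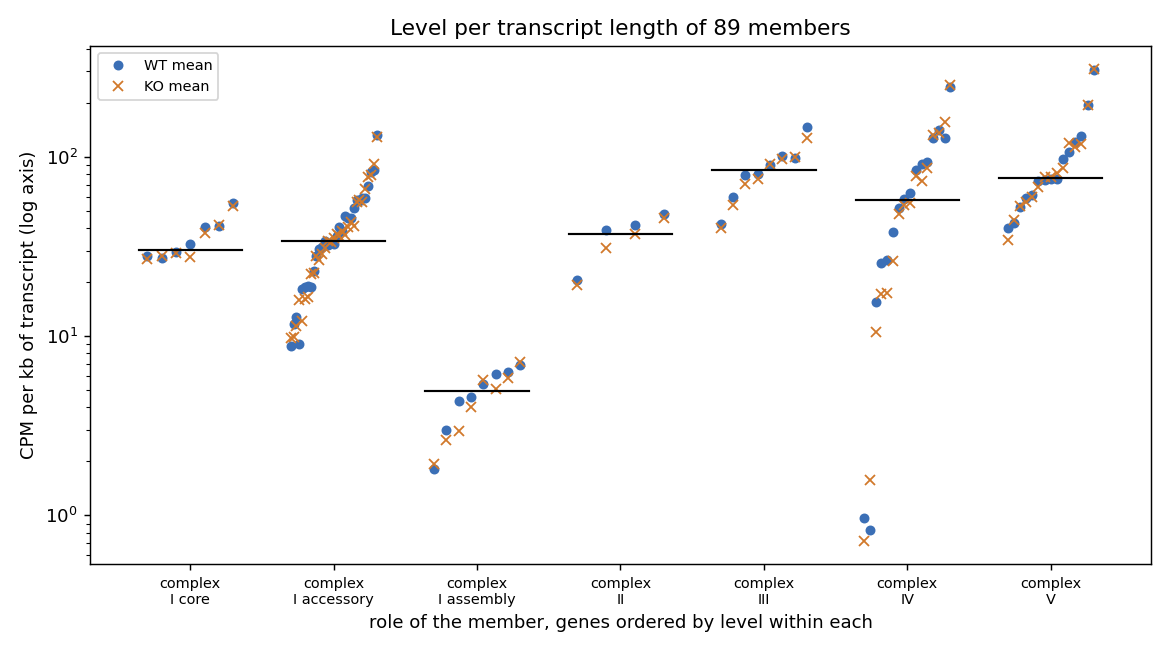
Mean level of 89 subunit genes in CPM per kilobase of transcript (log axis) in WT (blue points) and KO (orange crosses), ordered by level within each role, with a bar at the role's median. Levels run from below 1 for Cox4i2 and Cox6b2 in WT to 307 for Atp5b, assembly factors lie lowest as a role (median 4.94), and WT and KO marks lie close to each other for most genes.

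Protein length, a feature the rule did not use, was also compared. The 36 tested genes encoding at most 120 residues had a median log2 fold change of -0.09, and the 51 genes encoding longer proteins had -0.06. The median spread within groups (SD of log2(CPM + 0.5)) was 0.184 and 0.141. Over all 92 genes it was 0.160, beside 0.253 for all genes tested.

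Other mitochondrial gene lists gave similarly few calls. Of all genes tested, 1.82% were lower and 1.06% higher at an unadjusted p below 0.05 by limma. Of 40 assembly factors outside the rule, 0 were lower and 1 was higher at an unadjusted p below 0.05, with a median of 0.01. That gene was Acad9, a complex I assembly factor, with 163, 125 and 128 CPM in WT, against 185, 166 and 174 CPM in KO libraries (0.34 ± 0.13, SE; limma, unadjusted p = 0.0265). Every KO library lay above every WT library. Of 16 regulators of mitochondrial biogenesis none was called and the median was -0.01. Ppargc1a, a coactivator of these genes, had 5.81, 6.51 and 6.60 CPM in WT, against 4.25, 3.36 and 9.11 CPM in KO libraries.

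The pathways that feed electrons to the chain were examined next. None of 14 genes of the citric acid cycle was called, and the median was -0.09. In every KO library 4 genes lay lower (Dld, Idh3a, Idh3g and Mdh2), which is 28.6% beside 4.89% of all genes tested. Dlst lay higher in every KO library (1 gene, 7.14% beside 2.95%). Cs, the citrate synthase, differed by 0.02 ± 0.09 (SE). Of 13 genes of fatty acid oxidation only Cpt1a was called. This enzyme, which forms acylcarnitine for import of fatty acids, had 132, 144 and 149 CPM in WT, against 178, 175 and 176 CPM in KO libraries (0.31 ± 0.09, SE; limma, unadjusted p = 0.0104, adjusted p = 0.998). Cpt1b, its muscle form, had 15.2, 17.9 and 16.1 CPM in WT, against 11.1, 10.6 and 19.4 CPM in KO libraries, so that KO replicates 1 and 2 were low in this gene too.

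Among 10 carriers, porins and uncoupling proteins, Slc25a4, the ADP/ATP carrier of heart and muscle, was lower (-0.27 ± 0.11, SE; limma, unadjusted p = 0.0436). Its levels were 176, 181 and 194 CPM in WT, against 151, 137 and 171 CPM in KO libraries, with KO replicate 3 nearest to WT. Of 78 mitochondrial ribosomal proteins, 2 were lower (Mrpl39 and Mrps6) and 1 was higher (Mrpl18), with a median of -0.04. The symbols Rpl or Rps followed by a digit gave 102 genes, which include kinases such as Rps6ka1 and copies (median 0.00). Without the kinases, a binding protein and the copies marked as such in their symbols, 80 genes were left, paralogs such as Rpl3l among them. Their median was -0.003, with only Rpl30 called, as higher (0.50 ± 0.19, SE; limma, unadjusted p = 0.0278). Reads may be divided among copies here too, as Rps6 had a WT mean of 12.8 CPM and the omitted Rps6-ps4 one of 727 CPM. No gene of these lists passed an adjusted p of 0.05, and the lists were not tested as sets.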

How the data were processed

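RNA-seq was performed on bitten ear skin of 3 WT and 3 KO mice. The authors trimmed reads, aligned them to mm10 with STAR 2.7.3a, quantified Ensembl transcripts with the E/M method of Partek Flow, and deposited gene values in CPM (gene counts divided by the library total, plus an offset of 0.0001). That method can divide a read among near-identical genes. Use of read strand and the model for skin are not given in the sources used here.

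Depth was taken from the CPM of 1 read, and 91.9% to 92.6% of values under 20 reads lay within 0.1 of a whole read, so reads are estimates. Values were tested as log2(CPM + 0.5) in genes with a mean CPM of 1 or more, by limma 3.58.1 in R 4.3.3 (lmFit, eBayes with trend), two-sided, on all 6 libraries, with Benjamini-Hochberg adjustment over the 14306 genes tested. This scale understates the change of low genes. The step was tested on simulated data.

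Positions were taken from the deposited table (GRCm38). Transcript and protein lengths came from GENCODE M21, and 5 of the 94 genes had none. Promoter windows came from RefSeq (GRCm38.p6).

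The genes and lists were chosen with earlier results of these data known. Named genes were those past a threshold, the 5 of smallest p in each direction, the isoform pairs and a set of central subunits. Genes separating the groups, copies and the E-box were named after values were seen. Alternatives were other pseudocounts (0.1 and 2), filters (none, 5 CPM), scalings, variance settings, voom, marker covariates, a replicate block and leaving out each library. All value columns were used (0 unused).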

Additional observations from a re-analysis of the deposited data

How the results depend on the processing

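The count of genes past an adjusted p of 0.05 was 0 under all 21 alternatives, and the median log2 fold change stayed between -0.13 and -0.03. It exceeded the median of all genes by 0.02 without KO replicate 2 and was below it under the other 20. The number lower at an unadjusted p below 0.05, 0 as reported, was 4 with array weights (Cox8a, Ndufa1, Ndufb4c, Sdhb), 3 with the hair follicle score (Cox8a, Ndufa3, Sdhb), 3 with the skeletal muscle score (Ndufaf4, Ndufb4c, Sdhd), 2 with voom, 1 with a robust fit, 1 without the trend, 1 with copies summed (an alternative chosen after seeing the data) and 0 to 3 when 1 library was left out. The number higher, 1 as reported, was 0 with the hair follicle score and without the trend, and 0 to 1 when 1 library was left out. With the replicate number as a block, 2 were lower (Cox6a2, Cox8b) and 0 higher, beside 414 and 177 of all 14306 genes tested. The number lower among all genes tested rose in other settings too. It was 260 as reported, 420 with array weights, 578 with the hair follicle score and 426 with the skeletal muscle score. With voom it was 295, without the trend 324, and 147 to 395 when 1 library was left out. Deviations from the group mean were also correlated over the genes tested, between WT and KO libraries. Same-numbered libraries gave 0.376, -0.306 and -0.222, against 0.449 for WT replicate 3 and KO replicate 2. With 3 libraries per group the deviations depend on each other, so these values cannot decide whether the numbers pair the samples. When 1 library was left out, the number with all KO below all WT values was 8 to 22 (6 with all) and with all KO above 4 to 7 (3 with all), since fewer values must separate. The shares of all genes tested in these settings are not given here, so the counts cannot be read as particular to the subunit genes. The Cox8b to Cox8a log2 ratio difference ranged from -0.65 to 0.0044, positive only without KO replicate 2, and that of Cox6b2 to Cox6b1 from -0.43 to 0.023, with 0.0035, 0.0020 and 0.023 without WT replicate 2, WT replicate 3 and KO replicate 1. The cause of these changes was not tested. Among 671 values of 32 named genes, 37 had the opposite sign, none of them called. The scaling by median of ratios moved the median of all genes to -0.0033 and of the subunit genes to -0.04. Depth limits the low genes, in which 3 reads were 0.455 to 0.881 CPM.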
